A study of Mus musculus with 8 samples.

Results

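Acinar cells make up most of the exocrine pancreas and release digestive enzymes from zymogen granules into the ducts. Isolated islets are endocrine tissue, but preparations commonly hold some exocrine tissue as well. A set of 33 acinar genes, named by symbol as enzymes, granule and other secreted proteins, transcription factors, a receptor and a metabolic enzyme, was followed here in islet preparations from mice. Among probe sets annotated to a single symbol, the one brightest on average across all 8 arrays stood for its gene. In this way 29 of the 33 genes were measured, among 17097 genes on the arrays, and Ctrc, Pnlip, Try4 and Gatm were not analysed here. RefSeq lists TRY4 as a synonym of Prss3, which was kept apart as a gene outside the set.

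The arrays hold 4 groups of 2 islet samples each: PBA-treated mice carrying the human islet amyloid polypeptide transgene (hIAPP), untreated hIAPP mice, PBA-treated wild-type mice and untreated wild-type mice. PBA, phenylbutyrate, is a chemical chaperone, and was given at 1 g per kg per day for 12 weeks from an age of 8 weeks. All islets were taken at 20 weeks. The labels give the strain FVB/N-Tg(Ins2-IAPP)RFHSoel/J for all samples, wild type included; the Ins2 promoter of the transgene is active in beta cells and not in acinar cells. The labels do not say whether the 2 samples of a group came from separate animals or from pools, so p-values measure only the spread between these samples. With 2 arrays a group, the number of arrays limits the precision of every comparison.

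Values are log2 expression levels as deposited, rounded to 1 decimal. On this scale the median of the controls for non-specific binding was 3.10 and their 95th percentile, used below as the background level, was 4.68. Of the 29 genes, 22 lay above it on all 8 arrays, 5 on some arrays, and 2, Nr5a2 and Rbpjl, on none. Markers of the labelled tissue were high on every array: the median of 4 islet hormone genes other than insulin lay between 12.75 and 13.05. The median of 13 beta-cell genes lay between 11.10 and 11.80. The medians of these endocrine lists thus varied less between arrays than the enzymes did. Whether the hormone probes are near their upper limit was not tested. The label of acinar transcription factors held less well, since Ptf1a passed background on 2 arrays and Nr5a2 and Rbpjl on no array, leaving Bhlha15 as the factor with a clear signal throughout. The hybridisation controls of PBA-treated wild-type array 1 were lower, with a median of 6.95 against 9.80 to 10.20 on the other arrays. Gapdh probe sets of either transcript end differed by -0.30 to 0.10, and those of actin by 0.50 to 0.60. In such bulk samples, fewer cells of a type and less RNA per cell cannot be told apart.

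The digestive enzymes moved as a block from array to array, also between the arrays of a group. The mean of the 16 measured enzyme genes, called the enzyme index here, was 8.19 and 9.78 on the arrays of PBA-treated hIAPP islets, 10.81 and 11.86 in untreated hIAPP islets, 11.45 and 10.40 in PBA-treated wild-type islets, and 11.77 and 10.23 in untreated wild-type islets. Arrays of 1 group therefore differed 3.01-fold, 2.07-fold, 2.07-fold and 2.92-fold in the same order of groups. Only the PBA-treated hIAPP arrays lay apart from all others, and the arrays of the other 3 groups overlapped. The group means were 8.98 ± 1.12 in PBA-treated hIAPP islets, 11.34 ± 0.74 in untreated hIAPP islets, 10.93 ± 0.74 in PBA-treated wild-type islets and 11.00 ± 1.09 in untreated wild-type islets (SD, n = 2 each). PBA-treated hIAPP array 1 was the lowest array for 26 of the 29 genes, including all 16 enzymes of the index. Untreated hIAPP array 2 was the highest, alone or tied, for 21 genes and untreated wild-type array 1 for 9.

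**Figure D1:**
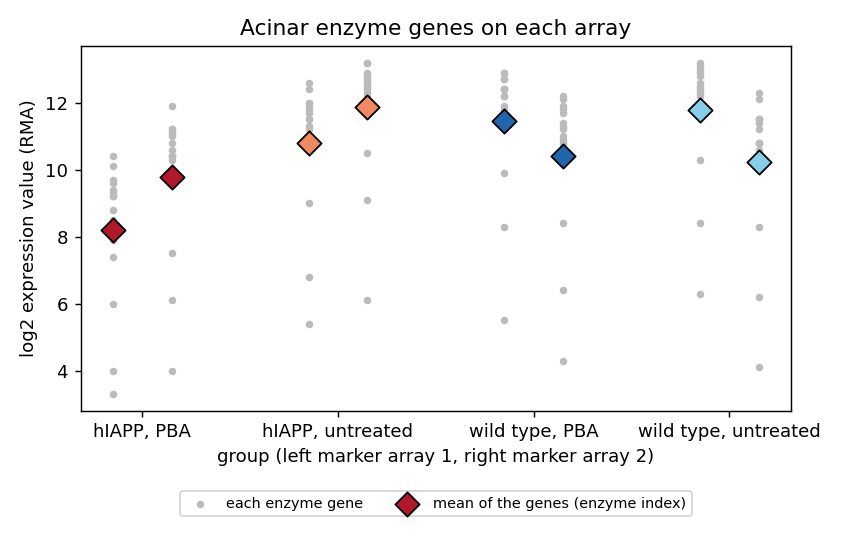
Log2 expression values (vertical axis) of 16 acinar enzyme genes (grey points) and their mean, the enzyme index (diamonds), on the 2 arrays of each group. The index of PBA-treated hIAPP islets was 8.19 and 9.78, below the 10.23 to 11.86 of the other arrays, and the arrays of a group differed by 1.05 to 1.59.

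Proteases gave the pattern of the index gene by gene. Cpa1, a carboxypeptidase that trims C-terminal residues from dietary proteins, was at 9.4 and 10.8 in PBA-treated hIAPP islets, 11.8 and 12.7 in untreated hIAPP islets, 12.2 and 11.2 in PBA-treated wild-type islets, and 12.6 and 11.2 in untreated wild-type islets. Prss2, a trypsinogen that enteropeptidase activates in the gut, was at 9.2 and 11.0 in PBA-treated hIAPP islets, 11.9 and 12.7 in untreated hIAPP islets, 12.7 and 11.8 in PBA-treated wild-type islets, and 12.8 and 11.5 in untreated wild-type islets. In both genes the 2 PBA-treated hIAPP arrays were the lowest of the 8, and the other 3 groups overlapped. The trypsinogen Try5, the carboxypeptidase Cpb1, the elastases Cela1, Cela2a and Cela3b and the chymotrypsin-like enzymes Ctrb1 and Ctrl had the same lowest array. Across the arrays these proteases spanned from 2.8 log2 units in Ctrb1 to 4.2 in Try5.

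Enzymes of fat digestion shared that lowest array. Cel, the bile salt-activated lipase, was at 7.4 and 9.6 in PBA-treated hIAPP islets, 11.2 and 12.3 in untreated hIAPP islets, 11.9 and 10.5 in PBA-treated wild-type islets, and 12.2 and 10.2 in untreated wild-type islets. Its arrays spanned 4.9 log2 units, a 29.9-fold range. The lipases Pnliprp1 and Pnliprp2 spanned 4.0 and 4.5 units, and Clps, the cofactor of pancreatic lipase, spanned 2.9. Pla2g1b, the secreted pancreatic phospholipase, was at 4.0 and 6.1 in PBA-treated hIAPP islets, 6.8 and 9.1 in untreated hIAPP islets, 8.3 and 6.4 in PBA-treated wild-type islets, and 8.4 and 6.2 in untreated wild-type islets. Of 3 further Pla2g1b probe sets, 1 ran between 5.3 and 8.4, and 2 stayed between 3.0 and 3.6, under background. In the first of these, PBA-treated hIAPP islets, at 5.3 and 5.8, overlapped untreated wild-type islets, at 7.6 and 5.6. PBA-treated wild-type islets were there at 7.2 and 5.8, so that probe set did not set PBA-treated hIAPP islets apart. Rnase1, the pancreatic ribonuclease, spanned 4.0 units, and the salivary-type amylase Amy1 was above background on 4 arrays and on neither array of PBA-treated hIAPP islets.

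Granule and other secreted proteins outside the index were also lowest on PBA-treated hIAPP array 1. Sycn, the zymogen granule protein syncollin, was at 8.0 and 9.3 in PBA-treated hIAPP islets, 11.1 and 12.5 in untreated hIAPP islets, 11.6 and 10.4 in PBA-treated wild-type islets, and 12.1 and 10.4 in untreated wild-type islets. Gp2, the main membrane glycoprotein of the granules, was at 5.0 and 8.2 in PBA-treated hIAPP islets, 9.1 and 10.8 in untreated hIAPP islets, 9.8 and 8.3 in PBA-treated wild-type islets, and 10.6 and 8.7 in untreated wild-type islets. Gp2 thus had the widest span of the 29 genes, 5.8 log2 units, and the PBA-treated hIAPP arrays alone differed by 3.2. Klk1, the tissue kallikrein, was at 6.4 and 8.6 in PBA-treated hIAPP islets, 9.8 and 11.5 in untreated hIAPP islets, 10.5 and 9.1 in PBA-treated wild-type islets, and 11.3 and 9.0 in untreated wild-type islets. A second Klk1 probe set gave nearly the same values, from 6.3 to 11.5, while another stayed between 5.8 and 6.4. The lectin-like granule protein Zg16, the granule membrane protein Cuzd1, the mucin-like scavenger receptor protein Dmbt1 and the trefoil peptide Tff2 spanned 4.1 to 5.3 units. The serpin Serpini2, at 3.1 and 3.8 in PBA-treated hIAPP islets, was below background on both arrays of that group, and of no other.

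The transcription factors did not share 1 pattern. Ptf1a, the acinar bHLH factor that forms a complex with Rbpjl on enzyme gene promoters, was at 3.6 and 3.7 in PBA-treated hIAPP islets, 4.0 and 4.7 in untreated hIAPP islets, 4.0 and 3.8 in PBA-treated wild-type islets, and 4.9 and 3.7 in untreated wild-type islets. It passed background only on the 2 arrays with the highest enzyme index. Rbpjl, between 3.2 and 3.8, and the nuclear receptor Nr5a2, between 3.6 and 4.4, stayed under background on all 8 arrays. Bhlha15, also known as Mist1, a bHLH factor that maintains the secretory architecture of acinar and other secretory cells, was at 9.7 and 9.7 in PBA-treated hIAPP islets, 8.6 and 8.7 in untreated hIAPP islets, 9.4 and 9.6 in PBA-treated wild-type islets, and 9.2 and 9.2 in untreated wild-type islets. It was highest where the enzymes were lowest, and its 4 groups did not overlap. Cckar, the cholecystokinin receptor, was at 3.3 and 3.8 in PBA-treated hIAPP islets, 4.4 and 6.9 in untreated hIAPP islets, 5.8 and 4.0 in PBA-treated wild-type islets, and 6.6 and 4.3 in untreated wild-type islets. It passed background on the 3 arrays with the highest enzyme index.

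**Figure D2:**
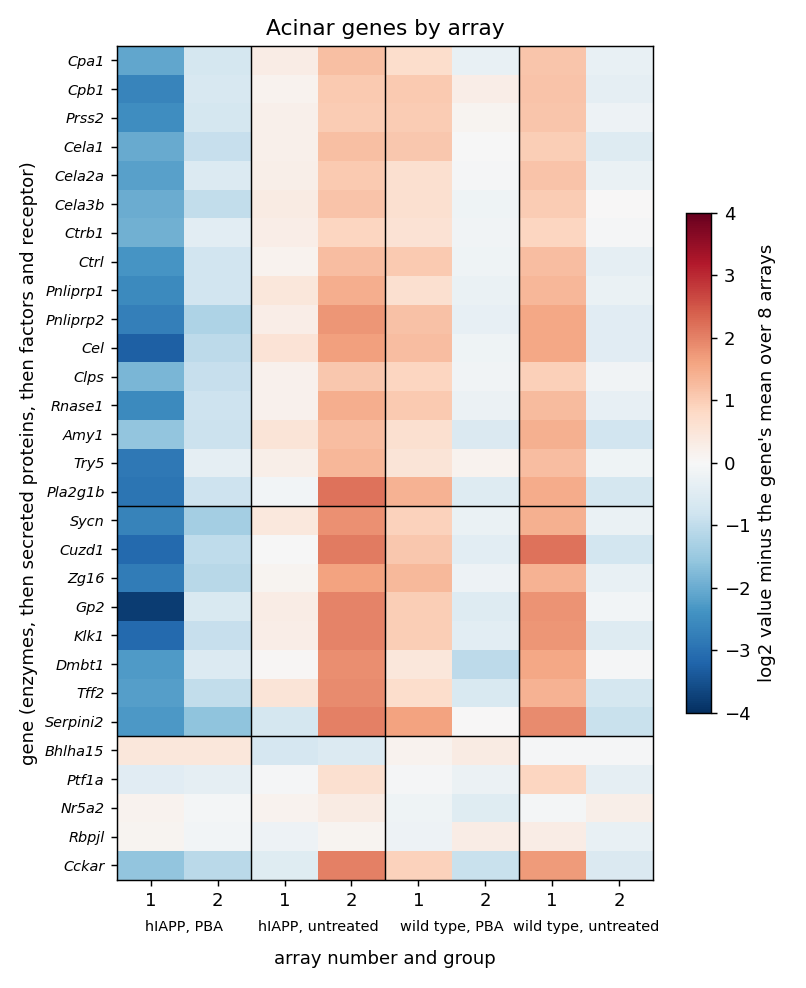
Log2 value of each of 29 acinar genes minus its mean over the 8 arrays (colour), by array (columns, 2 a group) and gene (rows). PBA-treated hIAPP array 1 was the lowest for 26 genes, and Bhlha15 was at 9.7 on both arrays of that group, its highest value.

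The spread between the arrays of a group set the acinar genes apart in size from most of the array. The residual SD, the spread within groups, had a median of 0.986 log2 units over the 29 genes and of 0.146 over all 17097 genes. It was above 0.454, the 99th percentile of all genes, in 26 of the 29. The 3 genes below were Bhlha15 at 0.0791, Nr5a2 at 0.180 and Rbpjl at 0.304, and the highest were Cuzd1 at 1.56 and Gp2 at 1.54. Nr5a2 and Rbpjl were under background on all arrays, so their low spread is not that of measured levels. The median absolute difference between the arrays of a group was 1.5 in PBA-treated hIAPP islets, 1.1 in untreated hIAPP islets, 1.2 in PBA-treated wild-type islets and 1.6 in untreated wild-type islets. For all genes these medians were 0.1, 0.1, 0.2 and 0.1 in the same order of groups.

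Within groups, a gene was said to follow the index where its difference between the arrays had the sign of the index difference, each index gene being left out of its own index. In all 4 groups, 26 of the 29 genes followed it, against 2.7% of all genes. They were the 16 enzymes, the 8 secreted proteins, Ptf1a and Cckar. The signs of Ptf1a rested in part on values under background, 3.6 and 3.7 in PBA-treated hIAPP islets and 4.0 and 3.8 in PBA-treated wild-type islets. Cckar, Amy1 and Serpini2 were under background on both PBA-treated hIAPP arrays. Nr5a2 and Rbpjl followed the index in 2 groups and Bhlha15 in 1. As Nr5a2 and Rbpjl were under background on all 8 arrays, their signs compare no measured levels. The enzymes' share is built into the index, which they form, while the other 13 genes were not used in it. Of markers of other cell types, 1 of 15 duct genes, 1 of 16 stellate and matrix genes, 0 of 15 macrophage genes, 1 of 12 endothelial genes and 0 of 13 beta-cell genes followed it in all 4 groups. Of 9 duct and acinar stress genes, a list that holds Reg1, Reg2 and other Reg genes, 4 did.

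The size of the movement differed between the probe sets kept for the genes. The within-group slope, the log2 change of a gene per log2 unit of the index with group means in the fit, ran from 0.66 in Cela3b to 1.62 in Pla2g1b over the index genes, with a median of 0.98. Ctrb1 and Clps, both at 0.71, were also at the low end. These slopes belong to the probe set kept for each gene, and other probe sets of a gene could differ. In PBA-treated hIAPP islets the kept Cela3b set was at 10.1 and 11.1, and another at 8.7 and 10.2. The kept Pla2g1b set was there at 4.0 and 6.1, and another at 5.3 and 5.8. Whether the brightest probe sets are near their upper limit was not tested. Among genes outside the index, 0.0293% of 17081 had a slope that passed limma's test with Benjamini-Hochberg adjustment at 0.05. Those 5 genes were Klk1, with a slope of 1.45 (SE 0.06, adjusted p = 0.00378), Zg16 at 1.19 (adjusted p = 0.0313), Cuzd1 at 1.63 (adjusted p = 0.0313), Sycn at 1.04 (adjusted p = 0.0499) and the regenerating-islet lectin Reg1 at 1.16 (adjusted p = 0.0313), which is not among the 33. The first 4 are 4 of the 13 measured genes outside the index. Gp2, at 1.60, missed the threshold (adjusted p = 0.0515), and Bhlha15 had a slope of -0.01. In each fit without 1 array, which has fewer residual degrees of freedom, 0 slopes passed.

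**Figure D3:**
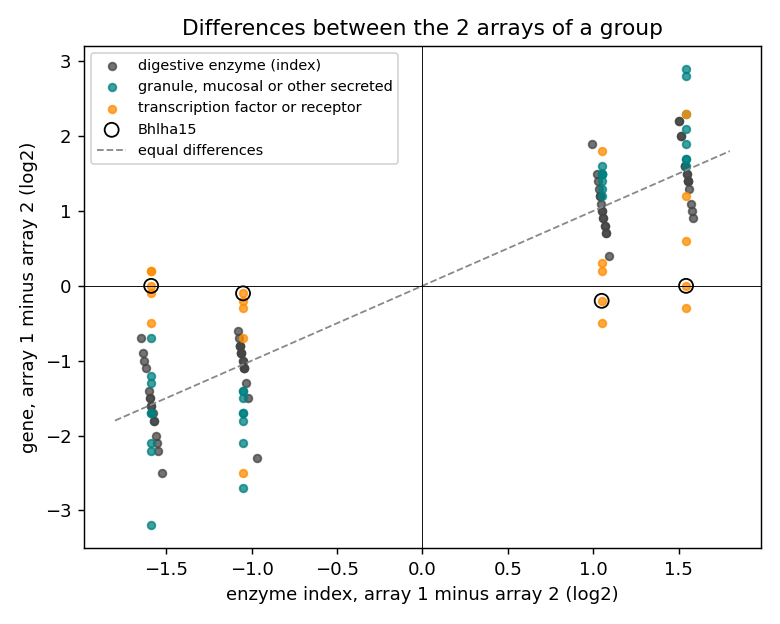
Difference between array 1 and array 2 of a group for each acinar gene (vertical axis, log2) against that of the enzyme index (horizontal axis, log2, the gene itself left out); each column of points is 1 group and the dashed line marks equal differences. Points of 26 genes lie on the side of the index in all 4 groups, while Bhlha15 (circles) differed by at most 0.2 log2 units in any group.

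Because enzymes and granule proteins moved together, the 250 bases before gene starts were searched in RefSeq promoters (GRCm38.p6). The search took all 29 measured genes, with 25 promoters matched for 23 of them. These include Bhlha15, Nr5a2 and Rbpjl, which did not follow the index in all 4 groups. The shares below are therefore not shares of the genes that moved together alone. Motifs were CACCTG, an E-box core of the kind bHLH factors bind, and TTCCCA, the core bound by the RBPJ family, on both strands; these letters do not overlap in the sequences shown. CACCTG was in 52.0% of the 25 promoters and in 17.2% of 32851 promoters in all. TTCCCA was in 56.0% of the 25 and in 21.6% of all. Both stood in 24.0% of the 25, those of Cel, Cela2a, Ctrl, Klk1, Prss2 and Rbpjl, and in 3.91% of all. The E-box CAGCTG was in 16% of the 25 and 13.0% of all, and TTTCCC, which can overlap TTCCCA, in 24.0% and 21.9%. TATAAA, the TATA box, was in 24.0% of the 25 and 12.4% of all, and AAGGTCA, a nuclear receptor element, in 12.0% and 4.08%. These motifs were picked with their counts seen, and a match is a description of the letters and not of binding. The promoters of an elastase, a trypsinogen and the kallikrein that followed the index, and that of Bhlha15, which did not, are shown 5′ to 3′ on the gene's strand, with CACCTG and TTCCCA in capitals in either orientation (CAGGTG and TGGGAA on the opposite strand). They lie at chr4:141826006-141826255 (minus strand) for Cela2a, chr6:41521526-41521775 (plus) for Prss2, chr7:44225110-44225359 (plus) for Klk1 and chr5:144190036-144190285 (plus) for Bhlha15.
Cela2a: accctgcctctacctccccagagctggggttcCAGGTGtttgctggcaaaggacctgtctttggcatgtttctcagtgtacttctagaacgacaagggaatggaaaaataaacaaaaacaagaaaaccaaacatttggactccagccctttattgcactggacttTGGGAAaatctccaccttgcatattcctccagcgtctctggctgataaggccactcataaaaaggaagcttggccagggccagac
Prss2: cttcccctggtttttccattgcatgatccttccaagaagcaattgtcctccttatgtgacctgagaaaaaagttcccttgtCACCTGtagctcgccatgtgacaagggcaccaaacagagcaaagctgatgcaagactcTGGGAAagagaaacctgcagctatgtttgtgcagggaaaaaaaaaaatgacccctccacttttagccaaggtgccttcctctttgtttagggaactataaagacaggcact
Klk1: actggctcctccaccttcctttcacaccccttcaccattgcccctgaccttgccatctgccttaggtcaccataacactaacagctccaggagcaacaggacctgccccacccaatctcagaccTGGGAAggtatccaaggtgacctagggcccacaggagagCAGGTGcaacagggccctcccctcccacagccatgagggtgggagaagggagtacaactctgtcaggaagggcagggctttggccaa
Bhlha15: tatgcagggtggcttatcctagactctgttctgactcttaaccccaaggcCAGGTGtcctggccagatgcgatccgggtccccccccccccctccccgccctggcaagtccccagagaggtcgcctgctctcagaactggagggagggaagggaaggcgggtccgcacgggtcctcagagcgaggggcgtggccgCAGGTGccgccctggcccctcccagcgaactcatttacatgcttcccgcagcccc
The first 3 are among the 6 genes with both motifs and hold 1 copy of each. The Bhlha15 promoter holds 2 copies of the E-box core and 0 of TTCCCA. Rbpjl, which did not follow the index in all 4 groups, has both motifs. Cpa1 and Sycn, which did follow it, have TTCCCA but not CACCTG. The 4 promoters shown thus do not tell genes that followed the index from those that did not.

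In PBA-treated against untreated hIAPP islets, Cela3b and Sycn fell and Bhlha15 rose; the other enzyme and secreted genes had negative fold changes that did not pass the test. The enzyme index of PBA-treated over untreated hIAPP islets differed by -2.36 log2 units, by -1.56 without PBA-treated hIAPP array 1 and by -3.15 without array 2. Over all 29 genes the median log2 fold change was -2.25, and it was 0 over all genes. By limma's moderated test on all 17097 genes with Benjamini-Hochberg adjustment, 3 of the 29 passed, 1 higher and 2 lower, where 8.09% of all genes passed, 1.78% higher and 6.32% lower. With each array centred on its median, those shares were 15.3% higher and 5.19% lower. The 3 calls in the main fit were near its share of all genes, so their number does not set the acinar genes apart. At an unadjusted p under 0.05 there were 24 of the 29, and 23% of all genes. The arrays of the groups did not overlap in 26 genes that were lower with PBA, against 20.8% of all genes, and in 1 that was higher, against 22.6%.

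Bhlha15 rose by 1.05 log2 units in PBA-treated over untreated hIAPP islets, 2.07-fold (SE 0.11, adjusted p = 0.00249). Its other, dimmer probe set gave 4.9 and 4.9 in PBA-treated hIAPP islets against 4.2 and 4.3 in untreated ones, higher as well. That probe set passed the background level only in PBA-treated hIAPP islets, and by little. On the untreated hIAPP arrays it was under background, so it gave no measured level to compare and adds little to the rise. Cela3b, an elastase-like protease, fell by 2.20 log2 units, to 10.60 ± 0.71 in PBA-treated against 12.80 ± 0.57 in untreated hIAPP islets (SE 0.48, adjusted p = 0.0356). Sycn fell by 3.15, to 8.65 ± 0.92 in PBA-treated against 11.80 ± 0.99 in untreated hIAPP islets (SE 0.75, adjusted p = 0.0467). Neither call held when any single array was left out, with adjusted p of 0.0763 to 0.229 for Cela3b and 0.0845 to 0.274 for Sycn, and Bhlha15 passed each time. Bhlha15 missed in the fit on the 4 hIAPP arrays alone (adjusted p = 0.0616), where 14 of all 17097 genes passed. It also missed without PBA-treated hIAPP array 1 and PBA-treated wild-type array 1 together. These are the arrays with the lowest enzymes and the lowest hybridisation controls. That fit leaves 1 array in each PBA-treated group and called fewer of all genes as well.

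The other members did not pass, although their fold changes were of like size. Cpa1 lay at -2.15 on the log2 scale (SE 0.63, adjusted p = 0.0904) and Prss2 at -2.20 (SE 0.67, adjusted p = 0.0978). Gp2, at -3.35, and Cel, at -3.25, had the greatest differences of the 29. Genes under background on both PBA-treated hIAPP arrays allow only a bound, with the PBA-treated arrays raised to the background level and the untreated arrays at their measured values: Amy1 was at least 2.10-fold and Serpini2 at least 2.58-fold lower with PBA. Cckar was at least 1.96-fold lower (adjusted p = 0.273 in the fit), with 1 of its 2 untreated hIAPP arrays above background. Ptf1a lay at -0.70 (SE 0.38, adjusted p = 0.326), Nr5a2 at -0.20 (SE 0.16, adjusted p = 0.520) and Rbpjl at 0.05 (SE 0.24, adjusted p = 0.924), at or near background in both groups.

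With the enzyme index added to the fit, 0 of the 13 genes outside the index passed in PBA-treated against untreated hIAPP islets. Of all 17097 genes, 83 passed in that fit, against 1384 without the index, so few calls of any kind remained. The difference of Sycn was then -0.69 (adjusted p = 0.354) and that of Zg16 0.01. Bhlha15 kept a difference of 1.02, with a wider error (SE 0.18, adjusted p = 0.0849). The index covariate takes 1 residual degree of freedom, and it is fitted on the spread between arrays within groups.

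**Figure D4:**
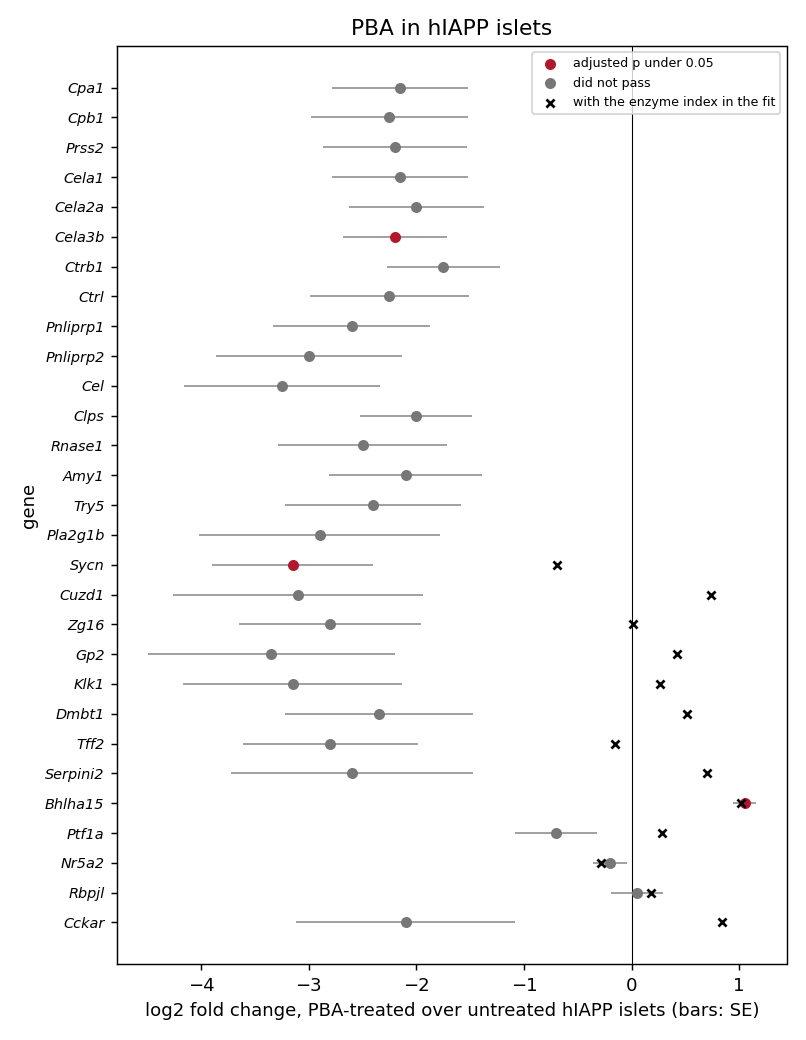
Log2 fold change of each acinar gene in PBA-treated over untreated hIAPP islets (points, with SE as bars) and, for the 13 genes outside the index, with the enzyme index in the fit (crosses). Red points, Cela3b, Sycn and Bhlha15, passed the test; Sycn lay at -3.15 without and -0.69 with the index, and Bhlha15 at 1.05 and 1.02.

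Markers of other cells moved in the same comparison. By the same test, 13 of 16 stellate and matrix genes, 13 of 15 macrophage genes and 9 of 12 endothelial genes fell in PBA-treated against untreated hIAPP islets. Of all genes 6.32% fell and 1.78% rose there, and 5.19% fell and 15.3% rose with arrays centred. The median log2 level of the stellate and matrix list was 7.20 and 7.55 in PBA-treated and 9.05 and 9.00 in untreated hIAPP islets. Macrophage markers had medians of 8.10 and 8.00 in PBA-treated and 9.30 and 9.00 in untreated hIAPP islets, and endothelial markers of 7.40 and 7.50 in PBA-treated and 8.70 and 8.35 in untreated hIAPP islets. Among duct genes 4 of 15 fell, with medians of 5.3 and 7.0 in PBA-treated and 7.10 and 7.30 in untreated hIAPP islets. Of 13 beta-cell genes 2 rose, as Bhlha15 did, and the other 11 did not pass; the list had a median log2 fold change of 0.35 and list medians of 11.4 and 11.4 in PBA-treated against 11.1 and 11.1 in untreated hIAPP islets. The part of these cells in the acinar and Bhlha15 values was not tested.

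In untreated islets, hIAPP against wild type, the enzymes and granule proteins showed no difference beyond the spread between arrays. The enzyme index was 0.33 higher in hIAPP islets, and leaving out single arrays moved it between -0.44 (without wild-type array 2) and 1.11 (without wild-type array 1). By limma, 1 of the 29 genes passed, where 11.0% of all genes passed, 7.77% higher and 3.19% lower (6.33% and 19.1% with arrays centred). It was Bhlha15, which fell by 0.55 log2 units, to 8.6 and 8.7 in hIAPP islets against 9.2 and 9.2 in wild-type islets (SE 0.11, adjusted p = 0.0177). That call was lost without any 1 of the 4 untreated arrays, with adjusted p of 0.0622 to 0.104 and differences of -0.60 to -0.50. Of 13 beta-cell genes 2 fell, as Bhlha15 did, and 11 did not pass (list median -0.35); this relation was not tested. In the same comparison 14 of 16 stellate and matrix genes, 13 of 15 macrophage genes and 8 of 12 endothelial genes rose, and their part was not tested either. Cpa1, at 0.35 (SE 0.63, adjusted p = 0.814), Prss2, at 0.15 (SE 0.67, adjusted p = 0.910), and Sycn, at 0.55 (SE 0.75, adjusted p = 0.708), overlapped between hIAPP and wild-type arrays. So did Ptf1a, Nr5a2, Rbpjl and Cckar, with log2 fold changes of 0.05, 0.15, -0.05 and 0.20.

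PBA in wild-type islets gave 0 of 29 genes past the threshold by limma, where 0.292% of all genes passed, 0.146% in each direction. At an unadjusted p under 0.05 there were 2 of the 29, and 10.5% of all genes. The index differed by -0.08 between PBA-treated and untreated wild-type islets, against within-group differences of 1.05 in the first and 1.54 in the second; single arrays moved it between -0.85 (without untreated array 2) and 0.69 (without untreated array 1). Bhlha15 was at 9.4 and 9.6 in PBA-treated wild-type islets against 9.2 and 9.2 in untreated ones, a difference of 0.30 (SE 0.11, adjusted p = 0.387). Dmbt1 had the lowest log2 fold change of the 29, -1.05. Cpa1 stood at -0.20 (SE 0.63, adjusted p = 0.914), Prss2 at 0.10 (SE 0.67, adjusted p = 0.996) and Sycn at -0.25 (SE 0.75, adjusted p = 0.911).

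PBA-treated hIAPP islets, set against PBA-treated wild-type islets, shared the arrays low in enzymes with the comparison above. The index of hIAPP over wild-type islets differed by -1.94, by -1.15 without PBA-treated hIAPP array 1 and by -1.42 without PBA-treated wild-type array 1, the array with low hybridisation controls. By limma 0 of 29 genes passed, and 0.421% of all genes did, 0.322% higher and 0.0994% lower. At an unadjusted p under 0.05 there were 17 of the 29, and 12.1% of all genes. The median log2 fold change was -1.95, and 25 genes were lower without overlap of arrays, against 14.8% of all genes. Cpa1 was at -1.60 (SE 0.63, adjusted p = 0.375), Prss2 at -2.15 (SE 0.67, adjusted p = 0.285) and Sycn at -2.35 (SE 0.75, adjusted p = 0.289). Bhlha15, at 0.20 (SE 0.11, adjusted p = 0.484), did not pass. Of macrophage genes 9 of 15 and of stellate and matrix genes 1 of 16 rose here, while the enzyme differences were negative.

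The difference between the PBA effects in hIAPP and wild-type islets was tested as an interaction. By limma 0 of 29 genes passed, and 1.96% of all genes did, 0.269% higher and 1.69% lower (0.673% and 0.836% with arrays centred). At an unadjusted p under 0.05 there were 8 of the 29, and 16.2% of all genes. Bhlha15 was the nearest, at 0.75 log2 units (SE 0.15, adjusted p = 0.0586), and the enzymes lay between -3.25 and -1.55, with a median of -2.25 (median SE 1.02). A PBA effect on acinar genes that differs between hIAPP and wild-type islets was thus not shown at this number of arrays.

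Of 25 further acinar genes measured, 2 passed the test in untreated hIAPP over wild-type islets and 0 in the other comparisons, a share near the 11.0% of all genes in the first. Nupr1, a stress-induced chromatin protein, rose by 0.90 log2 units (SE 0.16, adjusted p = 0.0141), with 11.0 and 11.1 in untreated hIAPP islets against 10.4 and 9.9 in untreated wild-type islets. Fkbp11, a prolyl isomerase of the endoplasmic reticulum, rose by 0.45 (SE 0.10, adjusted p = 0.0292), with 10.2 and 10.2 in untreated hIAPP islets against 9.8 and 9.7 in untreated wild-type islets. Neither followed the index in all 4 groups. Reg1, which did, was at 8.0 and 10.2 in PBA-treated hIAPP islets, 10.8 and 12.0 in untreated hIAPP islets, 11.2 and 10.2 in PBA-treated wild-type islets, and 12.0 and 10.4 in untreated wild-type islets.

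The trypsinogens Prss1 and Prss3, picked after their values were seen, differed from Prss2 and Try5 in their levels across groups, although all 4 lie on chromosome 6 in RefSeq. Within groups Prss1 followed the index in sign in all 4, as Prss2 and Try5 did, with a slope of 0.74, and Prss3 in 3. Prss3 passed the background level of 4.68 only on untreated hIAPP array 2, so its signs in the other groups compare no measured levels. Prss1 was near background on the wild-type arrays, at 4.8 to 5.1, and under it on PBA-treated hIAPP array 1, at 4.4. The slope of Prss1 did not pass limma's test (adjusted p = 0.929). Array 1 minus array 2 of Prss1 was -3.1 in untreated hIAPP islets and -0.9 in PBA-treated hIAPP islets. It was only 0.1 in PBA-treated and 0.3 in untreated wild-type islets. Prss1 was at 4.4 and 5.3 in PBA-treated hIAPP islets, 6.6 and 9.7 in untreated hIAPP islets, 5.0 and 4.9 in PBA-treated wild-type islets, and 5.1 and 4.8 in untreated wild-type islets. Prss3 was at 3.3 and 3.7 in PBA-treated hIAPP islets, 3.8 and 7.4 in untreated hIAPP islets, 3.4 and 3.7 in PBA-treated wild-type islets, and 3.7 and 3.3 in untreated wild-type islets. Both were high on untreated hIAPP array 2 and not on untreated wild-type array 1, whose enzyme index differed from it by less than 0.1. Prss1 differed by 3.20 log2 units in untreated hIAPP over wild-type islets (SE 0.86, adjusted p = 0.0572) and by -3.30 in PBA-treated over untreated hIAPP islets (SE 0.86, adjusted p = 0.0624), neither past the threshold. Trypsinogen genes are near-identical copies, so probes may bind the transcripts of several of them.

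**Figure D5:**
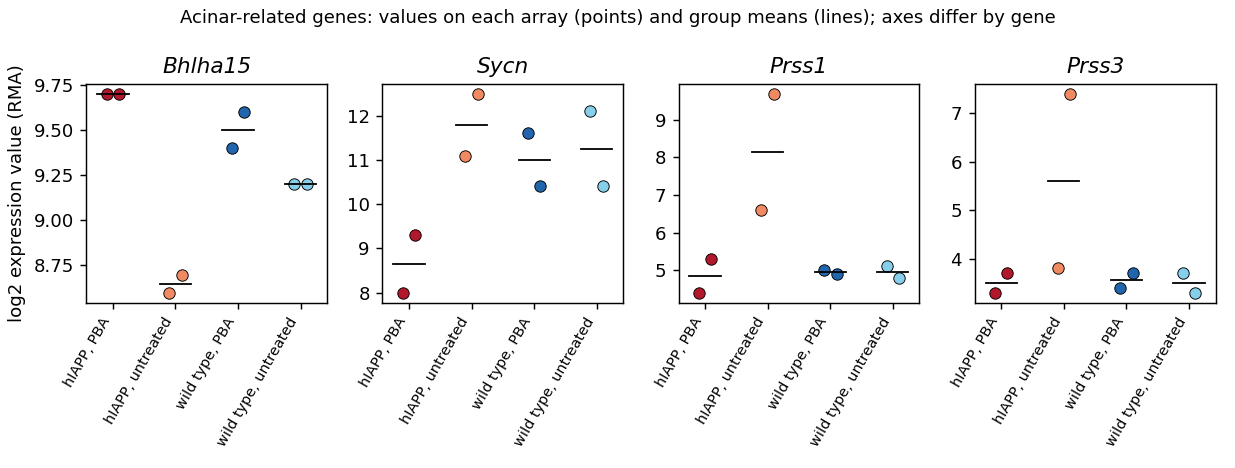
Log2 expression values of Bhlha15, Sycn, Prss1 and Prss3 on each array (points) with group means (lines); the vertical axes differ between genes and do not start at 0. Bhlha15 lay at 9.7 in PBA-treated and at 8.6 and 8.7 in untreated hIAPP islets, Sycn at 8.0 and 9.3 in PBA-treated against 11.1 and 12.5 in untreated hIAPP islets, and Prss1 and Prss3 were highest on untreated hIAPP array 2, at 9.7 and 7.4.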

How the data were processed

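RNA from islets was labelled with biotin and hybridised to Affymetrix mouse arrays, 1 array a sample. The authors deposited log2 values made with RMA in the affy package, per the submitters' processing notes; versions are not stated in the sources used here. RMA quantile-normalizes arrays, so values are relative to the rest of each array. Of 45141 probe sets, 28898 carried a single symbol in the platform annotation (551 several, 15588 none, 104 controls), giving 17097 genes. Here limma 3.58.1 in R 4.3.3 fitted 4 group means to all 8 arrays, with Benjamini-Hochberg adjustment at 0.05 over all genes, and a second fit had the enzyme index as covariate. The fit and its calls were checked on simulated data. The genes named are all members and the 8 fixed examples Cpa1, Prss2, Bhlha15, Ptf1a, Nr5a2, Rbpjl, Cckar and Sycn, further acinar genes past the threshold, and others said to be picked after their values were seen. The members and lists were chosen with earlier results of these data known. Array numbers 1 and 2 recur in all groups; 6 correlations of same-numbered deviations were -0.14 to 0.098, so the numbers were not used to pair samples. No scan dates were used. Probe set choice, a filter on dim genes, array centring, moderation, weights, smaller fits and leaving out arrays were tried as alternatives.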

Additional observations from a re-analysis of the deposited data

How the results depend on the processing

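Calls by limma rested on few arrays. In untreated hIAPP against wild-type islets the count of acinar genes past the threshold was 1, and 0 to 1 without single arrays, 0 on the 4 arrays of the comparison alone and 0 without PBA-treated wild-type array 1 and PBA-treated hIAPP array 1 together. In PBA-treated against untreated hIAPP islets it was 3, and 1 (Bhlha15) in each fit that left out an array, 1 with intensity trend and robust moderation, 0 on 4 arrays alone, 0 with the enzyme index as covariate and 0 without the named arrays together. The interaction count was 0, and 1 (Bhlha15) with the mean of all probe sets, with dim genes filtered, with arrays centred on the median and with trend and robust moderation. Slopes past the threshold numbered 5, and 9 with trend and robust moderation and 0 in each fit without an array. With the replicate number as a block, 1 gene (Bhlha15) passed in PBA-treated against untreated hIAPP islets, and the block moved no other such count by over 1.5 times; the labels do not say what the number marks. Fewer arrays and residual degrees of freedom are part of the smaller fits, and the cause of the other moves was not tested. Of all 17097 genes, 1384 passed in PBA-treated against untreated hIAPP islets in the main fit. On the 4 arrays alone 14 passed, with the index as covariate 83, and with trend and robust moderation 2295. In this and every other comparison, fits without an array, or without the named arrays together, also called fewer of all genes than the main fit. The loss of calls on 4 arrays and with the covariate was thus not limited to the acinar genes. Which genes kept a call was not compared. Centring arrays on the median shifts untreated hIAPP values by 0.2, as their all-gene median was 5.9 against 5.7 elsewhere, and turns the balance of all genes called higher and lower in both comparisons with untreated hIAPP islets. The enzyme index differences, which had no test, moved by less than the spread between replicates under the alternatives run; without single arrays they ran from -0.44 to 1.11 in untreated hIAPP against wild-type islets, -3.15 to -1.56 in PBA-treated against untreated hIAPP islets, -0.85 to 0.69 for PBA in wild-type islets and -2.74 to -1.15 in PBA-treated hIAPP against wild-type islets.

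Of 674 alternative values of named genes, 587 kept their call without a change of sign, 35 lost and 4 gained a call and 48 changed sign (values within 0.005 of 0 not counted as a change, such as Prss2 at 0.00412 for PBA in hIAPP islets with the index as covariate), 0 of the last among genes called in the main comparisons. In untreated hIAPP against wild-type islets the changed signs were Prss2 at -0.05, Ptf1a at -0.15 and Nr5a2 at -0.05 with arrays centred, and Prss2 at -0.16, Ptf1a at -0.09 and Cckar at -0.22 with the index as covariate. With that covariate Ptf1a was at 0.28 and Cckar at 0.84 for PBA in hIAPP islets; Cpa1 at 0.14, Ptf1a at 0.56, Rbpjl at 0.06 and Cckar at 1.07 in PBA-treated hIAPP against wild-type islets; and Cpa1 at 0.09, Ptf1a at 0.65 and Cckar at 1.29 in the interaction. With the mean of all probe sets Rbpjl was at -0.18 for PBA in wild-type islets and at 0.18 in PBA-treated hIAPP against wild-type islets. Without both named arrays Rbpjl was at -0.05 for PBA in hIAPP islets and Prss2 at -0.35 for PBA in wild-type islets. Without single arrays, values in untreated hIAPP against wild-type islets ran from -0.35 to 1.05 for Cpa1, -0.50 to 0.80 for Prss2, -0.30 to 1.40 for Sycn, -0.55 to 0.65 for Ptf1a, -0.35 to 0.25 for Rbpjl and -1.05 to 1.45 for Cckar. For PBA in wild-type islets they ran from -0.90 to 0.50 for Cpa1, -0.55 to 0.75 for Prss2, -1.10 to 0.60 for Sycn, -1.0 to 0.20 for Ptf1a, -0.25 to 0.35 for Rbpjl and -1.70 to 0.60 for Cckar. For PBA in hIAPP islets, without single arrays, Prss2 ran from -3.10 to -1.30, Cpa1 from -2.85 to -1.45 and Cckar from -3.35 to -0.85; in PBA-treated hIAPP against wild-type islets Prss2 ran from -3.05 to -1.25, Cpa1 from -2.30 to -0.90 and Cckar from -2.25 to -0.45. Rbpjl ran from -0.10 to 0.20 for PBA in hIAPP islets and from -0.30 to 0.20 in PBA-treated hIAPP against wild-type islets, and Ptf1a from -0.90 to 0.30 in the interaction. Genes near background, among them Ptf1a, Nr5a2 and Rbpjl, have no measured level to compare, and the filter on dim genes left these 3 out, so that it gave them no value. The mean of all members was taken over the 29 measured.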

Other observations

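Among 25 further acinar genes, 4 followed the enzyme index in all 4 groups, against 10 of the 13 members outside the index and 2.7% of all genes. Some of the 25 were under background, such as Gata4 at 3.2 to 3.8. The genes in this paragraph other than Reg1 were picked after their values were seen. Spink1, the trypsin inhibitor of pancreatic juice, was at 4.4 and 6.0 in PBA-treated hIAPP islets, 7.5 and 9.9 in untreated hIAPP islets, 8.3 and 7.1 in PBA-treated wild-type islets, and 9.0 and 6.9 in untreated wild-type islets. Its slope on the index was 1.35, and its order of arrays was close to that of the enzymes. Amy2a5, the pancreatic amylase, was at 11.2 and 12.5 in PBA-treated hIAPP islets, 12.7 and 13.0 in untreated hIAPP islets, 12.5 and 12.7 in PBA-treated wild-type islets, and 13.0 and 12.6 in untreated wild-type islets. It spanned less than the other enzymes, with a slope of 0.39, and followed the index in 3 groups; whether its probes are near their upper limit was not tested. Reg2, a secreted lectin of the family of Reg1, was at 7.3 and 9.3 in PBA-treated hIAPP islets, 5.9 and 8.1 in untreated hIAPP islets, 5.9 and 4.9 in PBA-treated wild-type islets, and 10.8 and 9.6 in untreated wild-type islets. Reg2 therefore had the sign of the index within each group, with a slope of 1.18, while its group levels ran in another order, lowest in PBA-treated wild-type islets and highest in untreated wild-type islets.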
